A study of Homo sapiens with 2 samples.

Results

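Autophagy, the lysosomal hydrolases and membrane proteins and the vacuolar proton pump (V-ATPase) were described through 55 genes in a bulk RNA-seq comparison of C4-2B MDVR prostate cancer cells. The genes were taken by symbol from a list made with earlier results of these data known, by a rule that uses no measured value, and all 55 were found among the 25268 symbols listed for each library. C4-2B MDVR is a castration-resistant human prostate cancer line that resists the antiandrogen enzalutamide. Both cultures were kept in 20 µM enzalutamide, and for 3 days 1 received the vehicle DMSO and 1 received 20 µM Indocin. Indocin is indomethacin, a cyclooxygenase inhibitor that also blocks the androgen-forming enzyme AKR1C3. With a single library on each side (1 per group), the differences lack a replicate check, and no error, test or p-value across cultures could be given. The comparison asks which transcripts of the degradation route that ends in the lysosome differed after Indocin. In these bulk libraries, fewer cells of a kind and less RNA per cell cannot be told apart.

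Macroautophagy encloses cytoplasm in a double membrane and delivers it to the lysosome. The ULK kinase complex starts the process, the class III phosphatidylinositol 3-kinase complex marks the site, and a ubiquitin-like conjugation system attaches ATG8 proteins (the LC3 and GABARAP families) to the membrane, where cargo receptors such as p62 bind them. Lysosomal hydrolases then digest the cargo in an acid lumen that the V-ATPase maintains. Many genes of this route carry a binding site, called the CLEAR element, for the MiT/TFE transcription factors TFEB, TFE3 and MITF.

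Values were FPKM, fragments scaled by transcript length and by the number of mapped fragments, which allow levels to be compared between genes per length. Differences are given as log2 ratios, log2((Indocin FPKM + 1)/(DMSO FPKM + 1)), on which a positive value means a higher level in the Indocin library. This scale understates the change of genes with low values. Among 1335 genes with low values, 50.7% had values in the libraries whose ratio, divided by 1.014, lay within 1% of that of whole numbers up to 5, so 1 fragment was worth nearly the same in both. The number of fragments behind a value was not recovered. Of 10 prostate luminal markers all were above the minimum of 1 FPKM, among them KLK3 at 71.7 FPKM under DMSO and 58.1 FPKM under Indocin. None of 11 macrophage and osteoclast markers reached that minimum, their sum being 0.342 and 0.298 FPKM, and CD163, TYROBP and OCSTAMP were listed at 0 in both libraries. Of 8 fibroblast markers only COL1A1 reached it (4.54 and 4.80 FPKM), and COL1A2, COL3A1, DCN and PDGFRA were listed at 0 in both. The 10 luminal markers had a median log2 ratio of -0.24, with 7 below 0 (6 after scaling to an equal upper quartile or an equal FPKM sum). Whether that difference bears on the values below was not tested. The FPKM sum used for scaling, here and below, left out short RNA genes and the gene BCYRN1.

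All 55 genes were listed above 1 FPKM in both libraries, the lowest being MITF. Their levels ran from 1.79 to 405.3 FPKM in the DMSO library and from 2.48 to 388.5 FPKM in the Indocin library. The median level was 28.4 FPKM in both, above the 12.5 and 12.3 FPKM of the 11961 genes averaging 1 FPKM or more. The group made up 0.51% of all FPKM under DMSO and 0.56% under Indocin. Its summed level was 3158.7 and 3268.8 FPKM, 3.48% higher under Indocin. The sum over all listed symbols was 617510 FPKM under DMSO and 583096 FPKM under Indocin, so the share also rose through a smaller total.

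**Figure D1:**
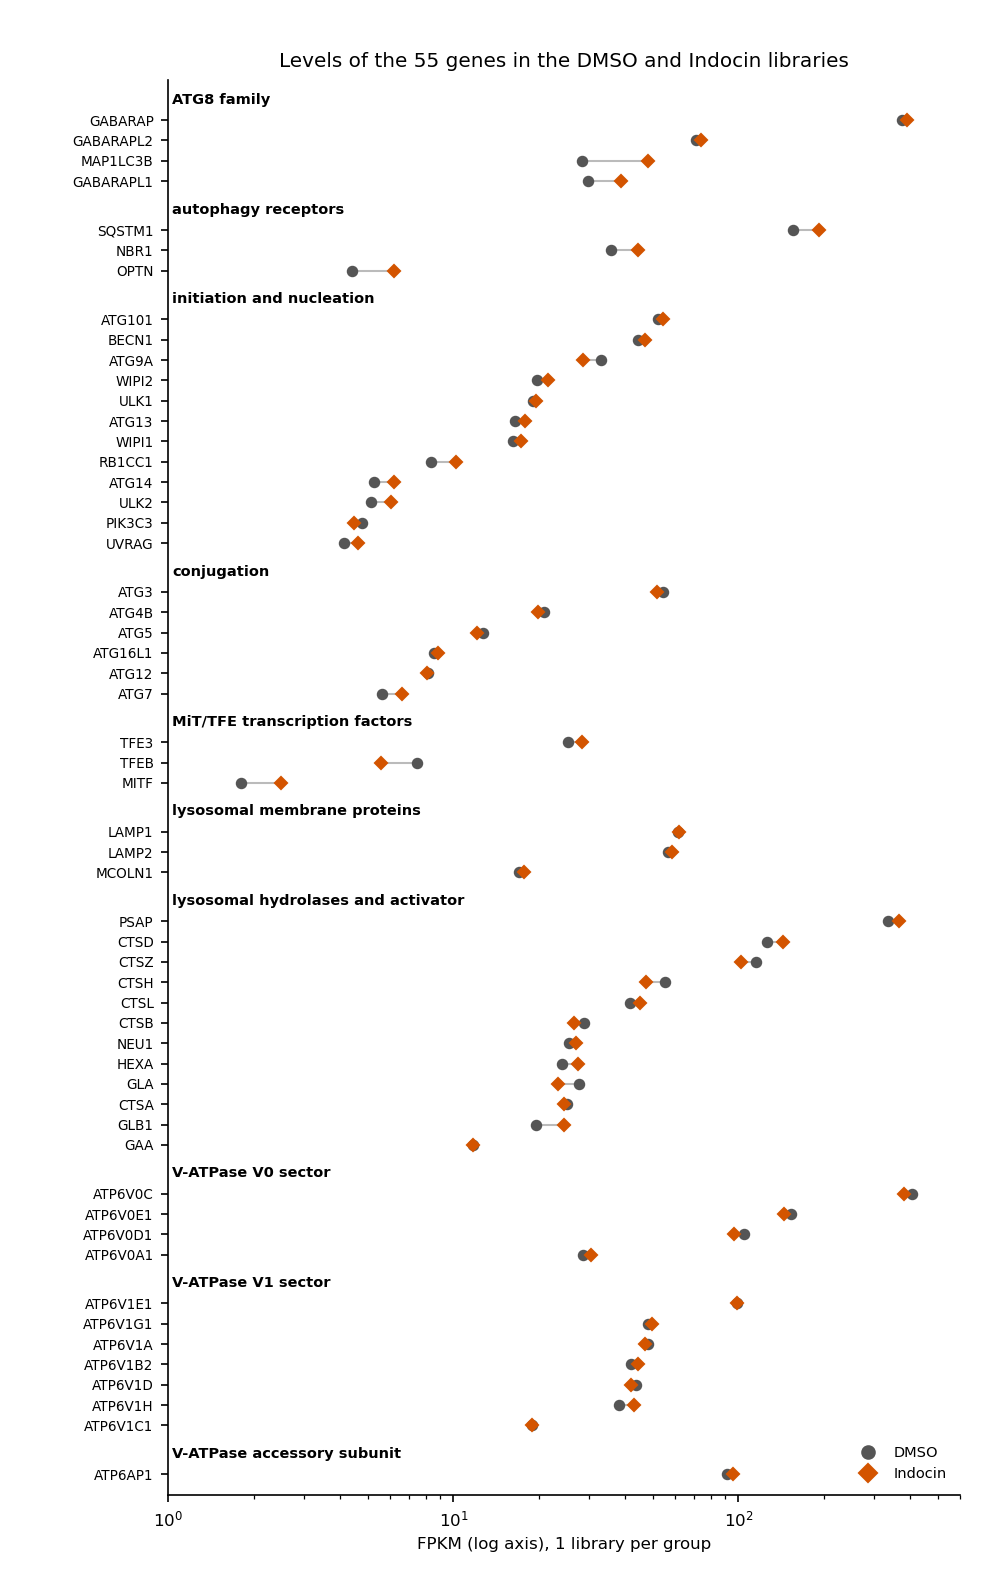
FPKM of each gene in the DMSO library (circles) and the Indocin library (diamonds) on a log axis, grouped by role and ordered by mean level within a role. The pairs lie close together except for a few genes, of which MAP1LC3B (28.2 and 48.1 FPKM) is the most widely separated.

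Most of the 55 genes lay slightly above 0, and few lay far from it. Their median log2 ratio was 0.06 (quartiles -0.05 and 0.16), beside -0.03 (quartiles -0.15 and 0.11) for all 11961 genes. In all, 37 of the 55 (67.3%) were above 0, where 44.8% of all genes were. As deposited, 18 were below 0. After scaling to an equal upper quartile, 46 were above 0, where 58.9% of all genes were. Every scaling tried raised the ratios, so the 37 above 0 as deposited stayed above 0 by construction. Only MAP1LC3B was at least 1.5-fold higher (1.82% of the members, where 2.19% of all genes were), and none was at least 1.5-fold lower, where 0.752% of all genes were. At least 1.2-fold higher were 7 members (12.7%, where 9.91% of all genes were). At least 1.2-fold lower was 1, TFEB (1.82%, where 11.7% of all genes were). The share past 1.5-fold was thus near the share of all genes, and the share 1.2-fold lower was below it. Nearest to the 1.2-fold line were SQSTM1 (0.30) inside and RB1CC1 (0.26) outside on the higher side, and TFEB (-0.37) inside and GLA (-0.24) outside on the lower side. RB1CC1 lay on the line to 3 decimals (0.263 for both). It was inside it with a pseudocount of 0.1 FPKM (0.29) and under each scaling tried, with ratios of 0.29 to 0.33. With ratios centred on the median of all genes the count on the higher side was thus 8, where 11.7% of all genes were. It was also 8 with an equal FPKM sum, where 12.5% were, and 9 with an equal upper quartile, where 14.9% were. With a pseudocount of 5 FPKM it was 5, without OPTN and MITF, where 4.36% of all genes were. TFEB was then no longer past the line on the lower side, where 6.68% of all genes were.

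**Figure D2:**
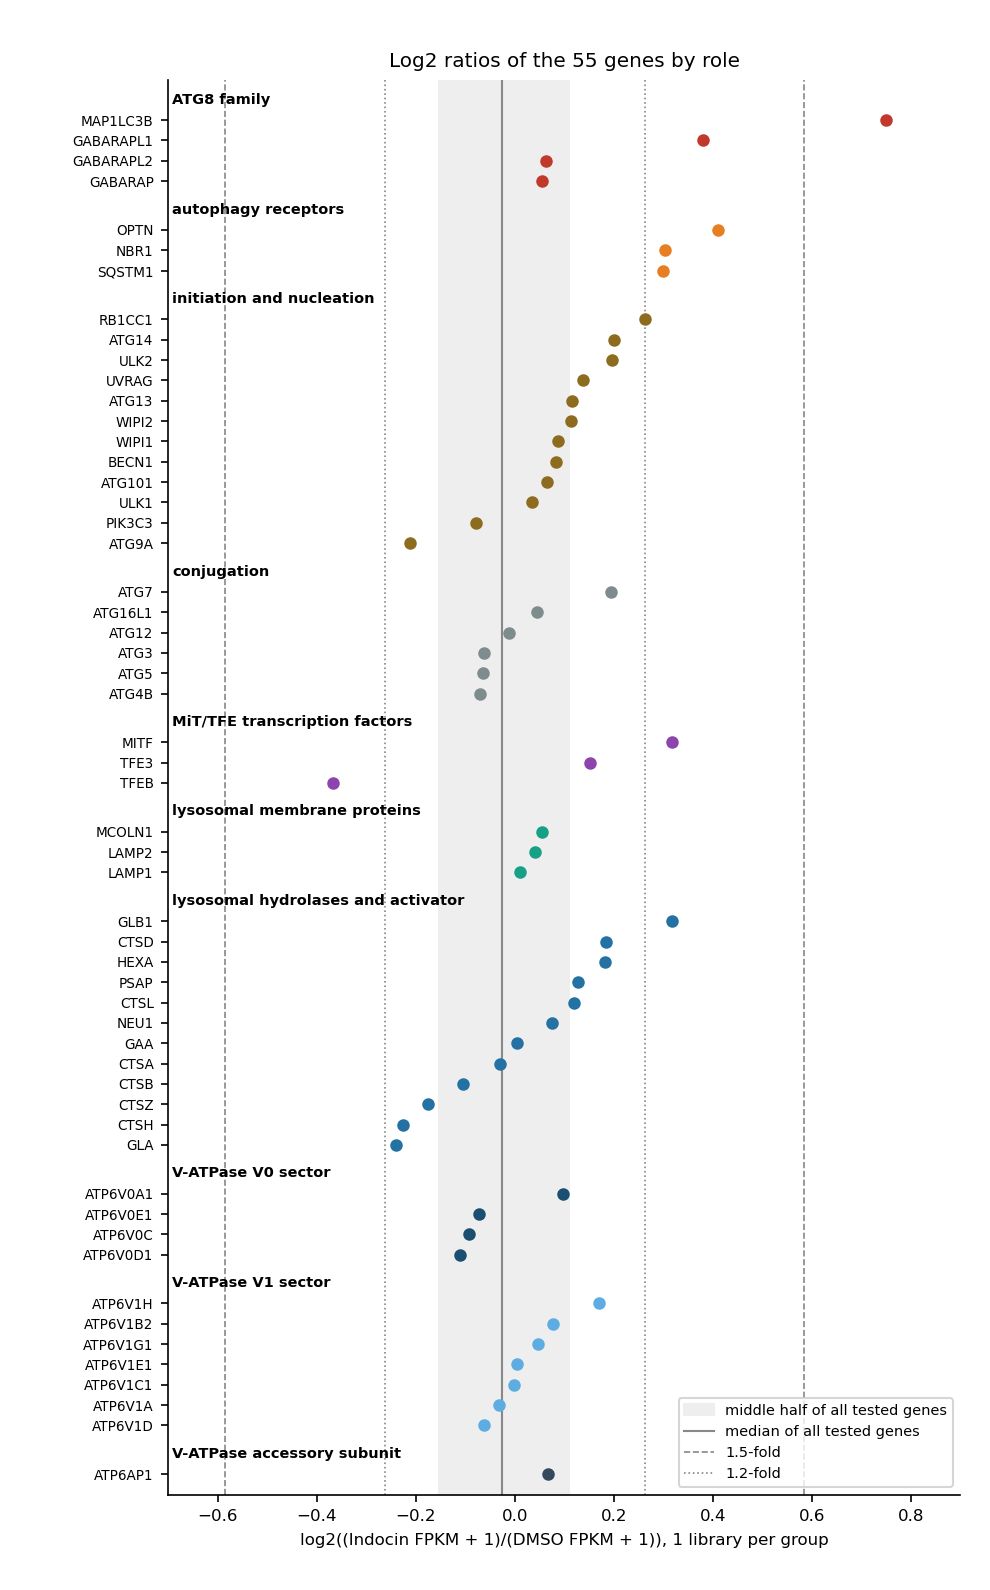
Log2 ratio of each of the 55 genes, Indocin over DMSO, grouped by role, with the quartile range and the median of all tested genes (shaded band and solid line) and the 1.2-fold and 1.5-fold lines. MAP1LC3B (0.75) is the only point past 1.5-fold, and TFEB (-0.37) is the only point past 1.2-fold on the lower side.

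Of the ATG8 proteins, which are lipidated onto the forming autophagosome, MAP1LC3B and GABARAPL1 were past 1.2-fold on the higher side, and the more abundant GABARAP and GABARAPL2 were not. MAP1LC3B, which encodes LC3B, stood at 28.2 FPKM under DMSO and 48.1 FPKM under Indocin, a log2 ratio of 0.75 that exceeded those of 98.6% of all genes. Under other pseudocounts and scalings it stayed past 1.5-fold, with ratios between 0.68 (pseudocount of 5 FPKM) and 0.82 (same upper quartile). GABARAPL1 stood at 29.6 and 38.8 FPKM (0.38). GABARAP, at 373.8 and 388.5 FPKM (0.06), and GABARAPL2, at 70.7 and 73.9 FPKM (0.06), were close to equal in the 2 libraries. Most of the summed level of the family was GABARAP, which held 74.3% of it under DMSO and 70.6% under Indocin, while MAP1LC3B held 5.60% and 8.74%. The other family genes were scarce. MAP1LC3A was listed at 0.354 and 0.453 FPKM, MAP1LC3C at 0.114 and 0.115 FPKM, and GABARAPL3 at 0 in both libraries.

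MAP1LC3B has a near copy, MAP1LC3B2, that holds 10.0% of the 50-base words of its longest coding transcript (GENCODE 29). Reads of the pair could therefore have been divided between them. Of GABARAP, 42.0% of such words occur in other GENCODE 29 genes, and of ATG9A, described below, 44.8%. The genes sharing most, AC120057.2 and AC068946.2, overlap GABARAP and ATG9A on the same strand and are not listed for these libraries. MAP1LC3B2 was listed at 0.365 and 0.552 FPKM, so its level was far below that of MAP1LC3B in both libraries. The 250 bases before the RefSeq start of MAP1LC3B (GRCh38.p14, chr16:87392086-87392335, plus strand) are shown because this was the 1 member past 1.5-fold. They hold neither the core of the CLEAR element, TCACGTG, nor the element of the stress factor ATF4 and its C/EBP partners, TGATGNAA, on either strand.
MAP1LC3B: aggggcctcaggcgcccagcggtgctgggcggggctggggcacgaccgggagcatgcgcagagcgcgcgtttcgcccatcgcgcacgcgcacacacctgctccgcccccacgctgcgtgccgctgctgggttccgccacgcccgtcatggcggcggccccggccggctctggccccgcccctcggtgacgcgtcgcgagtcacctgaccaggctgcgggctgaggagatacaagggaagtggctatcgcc

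**Figure D3:**
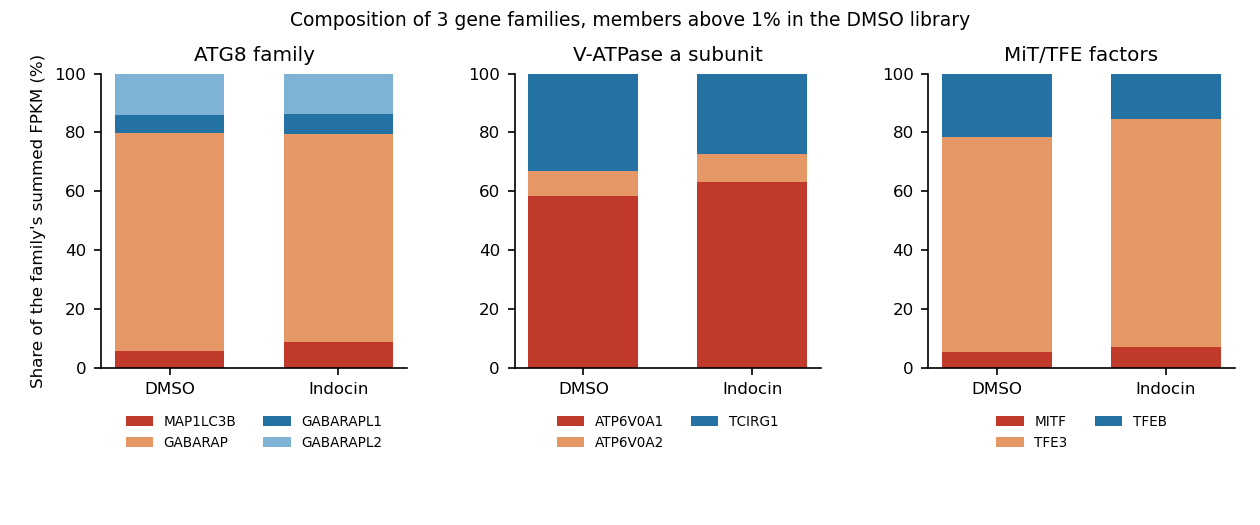
Share of the summed FPKM of a gene family held by each gene above 1% in the DMSO library, for the ATG8 genes, the isoforms of the V-ATPase a subunit and the MiT/TFE factors, 1 bar per library. GABARAP holds over 70% of the ATG8 sum in both libraries (74.3% and 70.6%), and TFEB goes from 21.6% to 15.3% of the MiT/TFE sum.

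All 3 cargo receptors among the members were past 1.2-fold on the higher side, where 9.91% of all genes were. Of 19 other receptors and mitophagy genes measured, described below, 5 were, and the median of those 19 was -0.01. SQSTM1, which encodes p62, the receptor of ubiquitinated protein aggregates, stood at 155.8 FPKM under DMSO and 192.0 FPKM under Indocin (0.30). NBR1, a receptor that works with p62, stood at 35.7 and 44.4 FPKM (0.30). OPTN, optineurin, a receptor for damaged mitochondria and bacteria, stood at 4.40 and 6.18 FPKM (0.41), and its ratio was 0.25 with a pseudocount of 5 FPKM. The median of the 3 was 0.30, and they lay above 92.1% or more of all genes. Their summed level was 195.9 FPKM under DMSO and 242.6 FPKM under Indocin, most of it SQSTM1. In GENCODE 29, MRNIP on the opposite strand covers 20.7% of the exon bases of SQSTM1. Listed under its older symbol C5orf45, MRNIP stood at 11.4 and 13.7 FPKM, well below SQSTM1, and the strand setting of the deposited values is not given in the sources used here.

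Genes that start autophagosome formation were mostly above 0 by small amounts. Of 12 genes of initiation and membrane nucleation 10 were above 0 and 2 below as deposited, with a median of 0.10. Of all genes 44.8% were above 0 as deposited, and 50% to 58.9% under the scalings tried. These scalings all raised the ratios, and the 2 genes stayed below 0 under each. On the FPKM + 1 scale none of the 12 was past 1.2-fold as deposited, though the plain FPKM of RB1CC1 were 1.22-fold higher. RB1CC1 was past the line under each scaling tried and with a pseudocount of 0.1 FPKM. ATG14 (0.26) was past it with an equal upper quartile. Within the ULK complex, RB1CC1, the scaffold FIP200, stood at 8.36 FPKM under DMSO and 10.2 FPKM under Indocin (0.26). The kinase ULK2 stood at 5.15 and 6.04 FPKM (0.20), while its better known relative ULK1 stood at 19.0 and 19.5 FPKM (0.03). The regulatory subunits ATG13 (0.11) and ATG101 (0.06) lay between them.

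In the phosphatidylinositol 3-kinase complex, ATG14, the subunit that directs it to autophagy, stood at 5.26 FPKM under DMSO and 6.19 FPKM under Indocin (0.20). UVRAG, which takes its place in the endosomal form, had a ratio of 0.14, and the core scaffold BECN1 (44.3 and 46.9 FPKM) one of 0.08. The catalytic subunit PIK3C3 was 1 of the 2 genes below 0, at 4.77 and 4.47 FPKM (-0.08). WIPI1 (0.09) and WIPI2 (0.11), which bind the lipid that PIK3C3 makes, were slightly higher. ATG9A, the membrane protein and lipid scramblase of the seed vesicles, was the lowest of the 12, at 33.0 and 28.4 FPKM (-0.21). Of the exon bases of WIPI1, 24.3% are covered by ARSG on the opposite strand, which stood at 3.80 and 4.76 FPKM. CNTD1, which covers 12.4% of BECN1 in the same way, was listed at 0.443 and 0.462 FPKM.

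The conjugation system, which attaches ATG8 proteins to lipid, lay close to 0, with none of 6 past 1.2-fold. The E1-like enzyme ATG7, the highest, stood at 5.63 FPKM under DMSO and 6.58 FPKM under Indocin (0.19), and ATG16L1, which places the complex on the membrane, had a ratio of 0.05. The protease ATG4B, which primes and removes ATG8 proteins, was the lowest at 20.8 and 19.8 FPKM (-0.07). ATG5 (-0.06), the E2-like enzyme ATG3 (-0.06) and ATG12 (-0.01) were also below 0. As deposited, 4 of the 6 were below 0 and the median was -0.04. After scaling to an equal upper quartile all 6 were above 0 and the median was 0.03, so the sign of ATG3, ATG4B, ATG5 and ATG12 depended on the scaling. VGLL4 covers 18.1% of the exon bases of ATG7 on the opposite strand and was itself more abundant, at 34.3 and 37.3 FPKM. Reads of this pair can be mixed where strand was not used.

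The MiT/TFE factors, which switch on lysosomal and autophagy genes once they enter the nucleus, lay on both sides of 0. TFEB was the lowest of all 55 genes, at 7.48 FPKM under DMSO and 5.57 FPKM under Indocin (-0.37), and only 5.10% of all genes had a lower ratio. TFE3, the most abundant, stood at 25.3 and 28.2 FPKM (0.15). MITF stood at 1.79 and 2.48 FPKM (0.32), a low level at which its ratio ran from 0.14 with a pseudocount of 5 FPKM to 0.45 with one of 0.1 FPKM. TFEB kept its sign under every setting, between -0.24 with a pseudocount of 5 FPKM and -0.42 with one of 0.1 FPKM. The median of the 3 was 0.15, and -0.11 with a minimum mean of 5 FPKM, which leaves out MITF. TFEC, the remaining family gene, was listed at 0 in both libraries. The summed level of the family was 34.6 and 36.3 FPKM, of which TFE3 held 73.2% and 77.8%. These are transcript levels, and the factors are known to be controlled largely by where their proteins are in the cell.

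RefSeq promoter sequences (GRCh38.p14, another build than that of the expression values) were matched for 44 of the 55 genes and searched over the 250 bases before the start. For 25 of the 44, the first bases after this start also lie in a GENCODE 29 transcript of the gene. Not matched were RB1CC1, UVRAG, LAMP2, CTSB, HEXA, PSAP, ATP6V0E1, ATP6V1A, ATP6V1B2, ATP6V1C1 and ATP6V1H. The core TCACGTG, on either strand, was present in 10 of the 44 (22.7%), in 6.75% of 8903 tested genes with a promoter and in 4.02% of all 27305 genes in the table. Median GC content of these windows was 67.0% for the members, 64.8% for the tested genes and 58.0% for all genes. The ATF4 element TGATGNAA was present in none of the 44 and in 2.16% of the tested genes with a promoter. The sites of the 10 genes are shown with up to 17 bases on each side, 5′ to 3′ on the strand of the gene. These genes are shown because they matched the core, and the other 34 of the 44 held no match. Capitals mark the core, written TCACGTG or, from the opposite strand, CACGTGA, and where both overlap, TCACGTGA.
ATG3, chr3:112561963-112561998, minus strand: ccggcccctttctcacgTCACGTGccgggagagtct
ATG14, chr14:55411831-55411868, minus strand: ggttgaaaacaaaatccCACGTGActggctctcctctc
LAMP1, chr13:113297029-113297119, plus strand: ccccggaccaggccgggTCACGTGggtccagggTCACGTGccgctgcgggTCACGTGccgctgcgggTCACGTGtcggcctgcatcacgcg
LAMP1, chr13:113297193-113297234, plus strand: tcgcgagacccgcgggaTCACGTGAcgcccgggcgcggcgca
MCOLN1, chr19:7522565-7522623, plus strand: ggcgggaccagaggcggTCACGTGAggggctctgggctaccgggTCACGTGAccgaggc
CTSA, chr20:45891275-45891333, plus strand: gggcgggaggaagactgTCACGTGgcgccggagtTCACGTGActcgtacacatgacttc
CTSD, chr11:1763951-1763991, minus strand: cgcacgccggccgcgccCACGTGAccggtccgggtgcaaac
GAA, chr17:80101487-80101528, plus strand: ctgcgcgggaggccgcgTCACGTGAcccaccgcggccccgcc
GAA, chr17:80101532-80101573, plus strand: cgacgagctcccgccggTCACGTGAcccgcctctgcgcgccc
NEU1, chr6:31862925-31862965, minus strand: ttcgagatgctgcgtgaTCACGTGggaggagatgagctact
ATP6V0D1, chr16:67481193-67481234, minus strand: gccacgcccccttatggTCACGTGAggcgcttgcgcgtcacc
ATP6V1G1, chr9:114587693-114587734, plus strand: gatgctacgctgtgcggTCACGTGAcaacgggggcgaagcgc

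LAMP1 held 5 such sites within the window, GAA, MCOLN1 and CTSA 2 each and the other 6 genes 1 each. The 10 genes had ratios between -0.11 (ATP6V0D1) and 0.20 (ATG14), with a median of 0.03 and 7 above 0. The 34 genes without the core had a median of 0.07, with 23 above 0 and MAP1LC3B among them. Among tested genes with a promoter, the median was -0.02 for 601 with the core and -0.03 for 8302 without it. A match describes these letters only, and a missing match says nothing of the factor.

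The lysosomal membrane proteins were nearly equal in the 2 libraries. LAMP1, a main glycoprotein of the lysosomal membrane, stood at 61.2 FPKM under DMSO and 61.6 FPKM under Indocin (0.01). LAMP2, its relative with a part in chaperone-mediated autophagy, stood at 56.7 and 58.4 FPKM (0.04). The calcium channel MCOLN1 stood at 16.96 and 17.67 FPKM (0.06). All 3 were above 0 as deposited, and each scaling tried raised the ratios.

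The lysosomal hydrolases were spread on both sides of 0, with a median of 0.04 over 11 enzymes and the activator PSAP. As deposited 7 were above 0 and 5 below, and CTSA was above 0 after scaling to an equal upper quartile or an equal FPKM sum. Of the glycosidases, which trim sugars from glycolipids and glycoproteins, GLB1 (beta-galactosidase) was the highest at 19.5 FPKM under DMSO and 24.5 FPKM under Indocin (0.32). It was the only hydrolase past 1.2-fold. HEXA, a subunit of beta-hexosaminidase, stood at 24.1 and 27.4 FPKM (0.18), sialidase NEU1 had a ratio of 0.07 and acid alpha-glucosidase GAA one of 0.00. GLA, alpha-galactosidase A, was the lowest of the 12 at 27.7 and 23.3 FPKM (-0.24). GLB1 and GLA thus lay at opposite ends of the group, and the other glycosidases lay between them. PSAP, the precursor of the saposins that present lipids to these enzymes, stood at 333.9 and 365.0 FPKM (0.13).

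Of the 6 cathepsins, the proteases of the lysosome, 2 were above 0 and 4 below as deposited (3 and 3 after either of these scalings). The aspartic protease CTSD stood at 125.5 FPKM under DMSO and 142.8 FPKM under Indocin (0.19), and the cysteine protease CTSL at 41.6 and 45.2 FPKM (0.12). CTSH, an aminopeptidase, stood at 55.4 and 47.2 FPKM (-0.23), and CTSZ, a carboxypeptidase, at 114.9 and 101.7 FPKM (-0.17). CTSB had a ratio of -0.10 and CTSA, which also protects GLB1 and NEU1 in a complex, one of -0.03. NEURL2, which covers 17.7% of the exon bases of CTSA on the opposite strand, stood at 2.26 and 2.94 FPKM. The sum of the 6 was 390.9 FPKM and 387.9 FPKM, so the totals were closer than the levels of CTSD, CTSH or CTSZ. With CTSC, CTSF, CTSK, CTSO, CTSS, CTSV and CTSW included, CTSD held 29.8% of the cathepsin sum under DMSO and 34.4% under Indocin, and CTSZ 27.3% and 24.5%. The GENCODE 29 gene AC068580.4 shares 60.6% of the 50-base words of CTSD and overlaps 41.7% of the exon bases of CTSD on the same strand. AC068580.4 is not among the symbols listed for these libraries, and how such reads were assigned was not tested.

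The V-ATPase genes lay close to 0, with none of 12 past 1.2-fold and ratios between -0.11 and 0.17. Of these, 6 were above 0 and 6 below as deposited, and 10 were above 0 with the same upper quartile, so the split around the median of 0.00 depended on the scaling. In the membrane-bound V0 sector, which passes the protons, the ring subunit ATP6V0C stood at 405.3 FPKM under DMSO and 379.9 FPKM under Indocin (-0.09). ATP6V0D1, the subunit that couples the ring to the central stalk, was the lowest at 104.5 and 96.7 FPKM (-0.11). ATP6V0E1 stood at 152.5 and 145.0 FPKM (-0.07) and ATP6V0A1, which forms the proton path with the ring, at 28.4 and 30.4 FPKM (0.10). Other GENCODE 29 genes share 87.3% of the 50-base words of ATP6V0C. The largest share, 72.3%, is with AC093525.2, which overlaps 57.5% of the exon bases of ATP6V0C on the same strand. AC093525.2 is not among the symbols listed for these libraries, and how such reads were assigned was not tested.

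In the cytosolic V1 sector, which splits ATP, ATP6V1H, the regulatory subunit, was the highest of 7 at 38.2 FPKM under DMSO and 43.1 FPKM under Indocin (0.17). The catalytic subunit ATP6V1A stood at 48.0 and 46.9 FPKM (-0.03) and its partner ATP6V1B2 at 42.1 and 44.5 FPKM (0.08). The stalk subunit ATP6V1D was the lowest at 43.7 and 41.9 FPKM (-0.06). The peripheral stalk subunits ATP6V1E1 (98.9 and 99.2 FPKM, 0.00), ATP6V1G1 (48.0 and 49.6 FPKM, 0.05) and ATP6V1C1 (18.8 FPKM in both, -0.00) were nearly equal. ATP6AP1, an accessory subunit needed for assembly, stood at 90.9 and 95.3 FPKM (0.07). The core subunits ATP6V0B (295.5 and 279.3 FPKM, -0.08) and ATP6V1F (224.0 and 209.7 FPKM, -0.09) are not among the 55 genes and are named here after their values were seen, since each was more abundant than most of the genes above.

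For several subunits of the pump with more than 1 isoform gene, 1 gene held nearly all of the level in both libraries. ATP6V1B2 held 99.9% and 99.8% of the B subunit sum, and ATP6V0D2 and ATP6V1G3 were listed at 0 in both libraries. The e subunit was shared between ATP6V0E1, with 60.1% and 61.9% of its sum, and ATP6V0E2, with 39.9% and 38.1%. The a subunit was shared among 3 genes. ATP6V0A1 held 58.5% of its sum under DMSO and 63.1% under Indocin, TCIRG1, the isoform known from osteoclasts, 33.0% and 27.1%, and ATP6V0A2 8.35% and 9.57%. The sum of the a isoforms was 48.6 and 48.2 FPKM. The sums were close, and ATP6V0A1 and TCIRG1 lay in opposite directions (0.10 and -0.28).

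**Figure D4:**
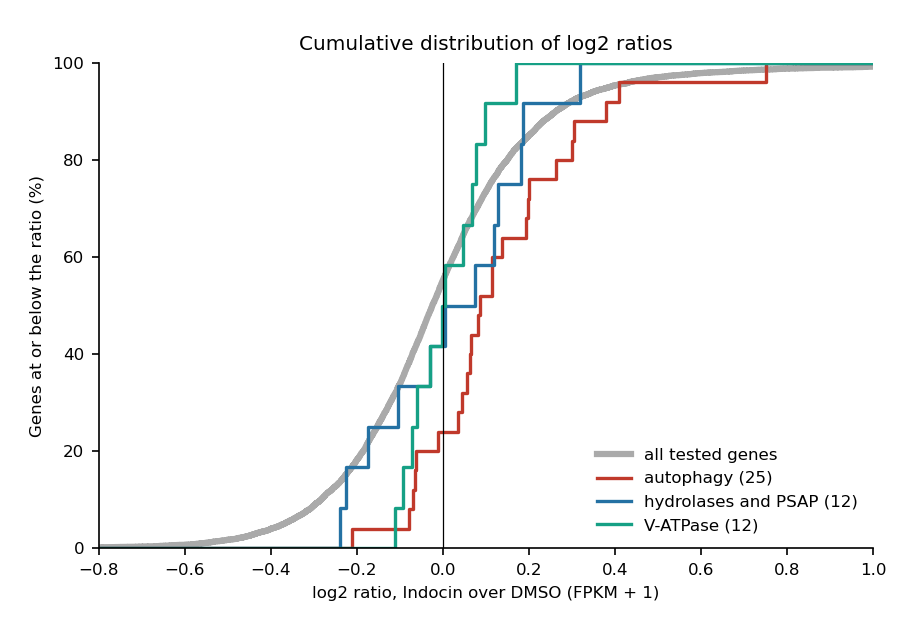
Share of genes at or below each log2 ratio for all 11961 tested genes (grey), the 25 autophagy genes, the 12 hydrolase genes with PSAP and the 12 V-ATPase genes. The autophagy curve lies to the right of the grey one over most of its range (median 0.09 against -0.03), and the V-ATPase curve runs only from -0.11 to 0.17.

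Further genes of the same route were taken from lists written from general knowledge, with earlier results of these data known. Among 31 other genes of autophagosome formation and fusion the median was 0.08, with 23 above 0, 6 at least 1.2-fold higher, 2 as much lower and none past 1.5-fold. Of all genes 44.8% were above 0 (58.9% with the same upper quartile), 9.91% were 1.2-fold higher and 11.7% as much lower. Past 1.5-fold were 2.19% on the higher and 0.752% on the lower side. The same shares apply to the lists below. Those furthest from 0 were the scramblase TMEM41B (20.0 FPKM under DMSO and 26.9 FPKM under Indocin, 0.41), the WIPI relative WDR45 (20.5 and 27.3 FPKM, 0.39), the tethering subunit VPS18 (19.3 and 15.5 FPKM, -0.30) and the tether EPG5 (0.30). The median thus resembled that of the member genes of autophagy, which was 0.09 over 25 genes with 19 above 0.

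Among 21 other cargo receptors and mitophagy genes 19 were measured, with a median of -0.01 and 9 above 0 (14 with the same upper quartile). Past 1.5-fold on the higher side were 3 of them, where 2.19% of all genes were, and none was on the lower side, where 0.752% of all genes were. CALCOCO2, which encodes NDP52, a receptor for bacteria and damaged mitochondria, stood at 22.7 FPKM under DMSO and 39.4 FPKM under Indocin (0.77). CCPG1, a receptor for autophagy of the endoplasmic reticulum, stood at 6.01 and 10.3 FPKM (0.69), and CALCOCO1, a receptor of the same organelle, at 4.58 and 7.40 FPKM (0.59). BCL2L13, a mitochondrial receptor, followed at 0.31. With a pseudocount of 5 FPKM only 1 of the 19 stayed past 1.5-fold.

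Among 42 other hydrolases and activators 36 were measured, with a median of 0.03, 23 above 0 and 1 past 1.5-fold. That gene was DNASE2, the acid nuclease that digests DNA in lysosomes, at 25.5 FPKM under DMSO and 49.7 FPKM under Indocin (0.93), a larger ratio than that of any of the 55 members. GALC, galactosylceramidase, stood at 6.33 and 9.96 FPKM (0.58), just short of 1.5-fold on the FPKM + 1 scale but past it in plain FPKM. It was past 1.5-fold with a pseudocount of 0.1 FPKM and under each scaling tried, all of which raised the ratios. HYAL2 (-0.41) and CTSC (-0.39) were the furthest on the lower side. The median of the list was close to the 0.04 of the 12 member hydrolases.

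Among 33 other membrane and sorting genes 31 were measured, with a median of 0.02, 18 above 0 and none past 1.5-fold. The cholesterol exporter NPC1 stood at 16.5 FPKM under DMSO and 22.5 FPKM under Indocin (0.43), and the proton-leak channel TMEM175 at 5.21 and 7.05 FPKM (0.37). The phosphotransferase subunit GNPTG (0.27) and the sorting receptor IGF2R (0.24) followed. Among 21 other V-ATPase subunits, isoforms and assembly factors 15 were measured, with a median of 0.04 and none past 1.5-fold. The assembly factors DMXL2 (0.29) and DMXL1 (0.22), the isoform ATP6V1E2 (0.27) and TCIRG1 (-0.28) were the furthest from 0.

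A list of 19 genes held mTORC1 subunits and regulators at the lysosome (the Rag GTPases, Ragulator, folliculin and its partners), the nuclear repressors ZKSCAN3 and BHLHE40, and TFEC. All but TFEC, 18 genes, were measured. Their median was 0.07, with 10 above 0 (15 with the same upper quartile) and none past 1.5-fold. The folliculin partner FNIP2 stood at 3.06 FPKM under DMSO and 2.34 FPKM under Indocin (-0.28). The mTOR complex subunit MLST8 (57.2 and 67.5 FPKM, 0.23), the repressor BHLHE40 (0.20) and the autophagy repressor ZKSCAN3 (0.19) were the next furthest. As deposited, none of the 18 was past 1.2-fold on the higher side, and FNIP2 was the 1 past it on the lower side.

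**Figure D5:**
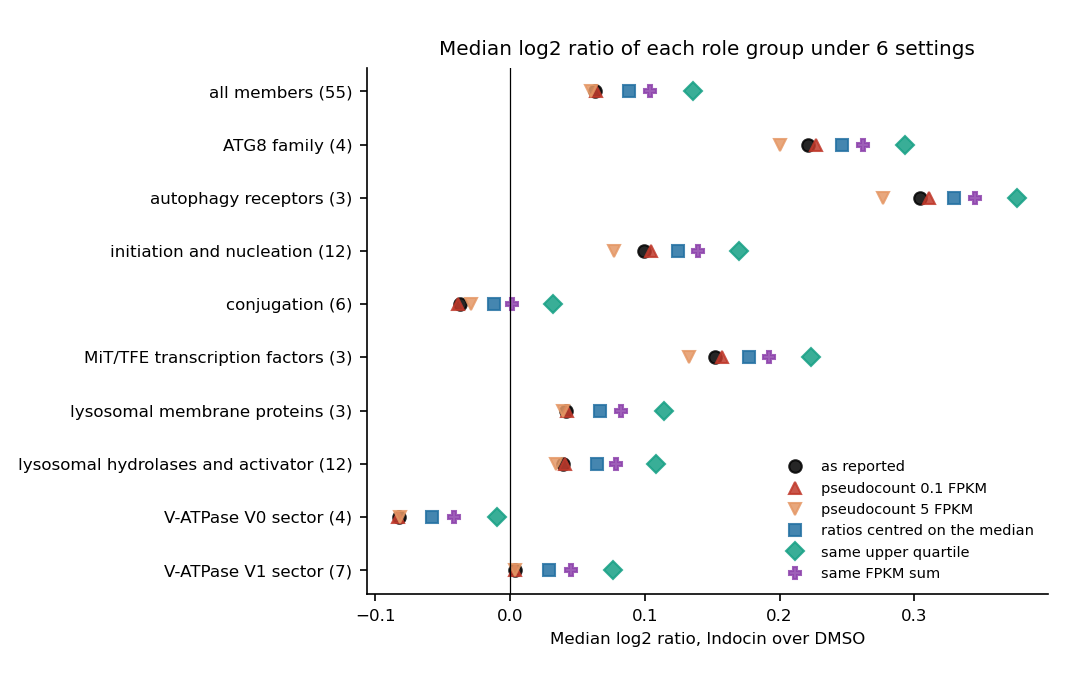
Median log2 ratio of all 55 genes and of each role group under 6 settings, with the number of genes in parentheses. The receptors (0.30 as reported) and the ATG8 genes (0.22) stay highest, and the medians of the conjugation genes lie on both sides of 0 (from -0.04 to 0.03).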

How the data were processed

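RNA-seq of 2 libraries was used, 1 per group. Per the file headers, the deposited values were FPKM per gene symbol with a status, which was OK on every line. Listed in the submitters' processing notes are the tools TopHat, StringTie, Cufflinks, Cuffnorm and bcl2fastq, with builds hg19 and GRCh37. Tool versions, annotation and strandedness were not given in the sources used here. From FPKM the log2 ratio with a pseudocount of 1 FPKM was computed for genes averaging 1 FPKM or more, leaving out 2066 symbols of short RNA genes. Count models do not apply to FPKM, and with 1 library per group no test was made. A gene was counted past 1.5-fold, and also 1.2-fold, on this scale.

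The members and lists were chosen with earlier results of these data known. Every member is named. Both values are given for members past 1.2-fold, for the extremes of each role and for the ATG8 genes, and of each other list the 4 genes furthest from 0 are named. Alternatives were other pseudocounts, minimum levels, scalings and folds, and short RNA genes kept. Scaling to an equal FPKM sum used the sum without short RNA genes and BCYRN1. Scaling to the sum of all symbols was not tried. Subtraction of the trend with expression, GC content and transcript length, and omission of 6 members that share over 10% of their 50-base words with another gene, and counts at 1.2-fold under each setting, were chosen after seeing the data. Transcript sequences came from GENCODE 29 and promoters from RefSeq (GRCh38.p14). Calculations used Python 3.11.15, numpy 2.4.6 and pandas 2.3.3, and were tested on simulated data.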

Additional observations from a re-analysis of the deposited data

How the results depend on the processing

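The number of members past a fold depended on the fold. At 1.2-fold 7 were higher and 1 was lower, and at 2-fold 0 were higher and 0 lower, against 1 and 0 at 1.5-fold. Across settings (added after seeing the data) 5 to 9 were 1.2-fold higher, where 4.36% to 14.9% of all genes were. On the lower side 1 was past 1.2-fold except with a pseudocount of 5 FPKM, where 0 were. In these settings 6.56% to 13.9% of all genes were 1.2-fold lower. Under the other pseudocounts, minimum levels and scalings 1 member was past 1.5-fold on the higher side and none on the lower. The members' median log2 ratio lay between 0.06 (mean of at least 5 FPKM) and 0.14 (same upper quartile), and the number above 0 between 35 of 52 (mean of at least 5 FPKM) and 46 of 55 (same upper quartile). It was 33 of the 49 left without the 6 members that share words with another gene (MAP1LC3B among them, so none of the 49 was past 1.5-fold), where the median was 0.06, and 41 with the trend over length, GC content and expression removed, where the median was 0.11 (both added after seeing the data). Of 588 values of role groups, other lists and single members under these settings, 18 moved, by 0.1 or more on the log2 scale or more than 1.5 times for a count. Among members these were OPTN, TFEB and MITF with another pseudocount, and CTSD (0.30) and ATP6V0C (0.01) with the trend removed. The cause was not tested. With the same upper quartile the median of all tested genes moved from -0.03 to 0.04. No paired analysis was possible because each group had 1 library. The number of fragments behind each FPKM was not recovered, so no counting error could be given.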

Other observations

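LAMP3, a lysosomal membrane glycoprotein, was listed at 0.0170 FPKM under DMSO and 0.814 FPKM under Indocin. Its mean lay under the minimum of 1 FPKM, so it entered no count, and it was chosen after its values were seen. Were low values kept, it would be the 1 gene past 1.5-fold in the list of other membrane and sorting genes (log2 ratio 0.84 on the FPKM + 1 scale).

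The promoter element TGATGNAA, which none of the 44 members with a promoter held, was present in 192 of the 8903 tested genes with a promoter. Of these 192 genes, 24 (12.5%) were past 1.5-fold on the higher side, beside 162 of the 8711 without it (1.86%). This is a description of the 2 libraries, with no test.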
